A study of Rattus norvegicus with 18 samples.

Results

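A set of 6 genes of matrix remodelling and transforming growth factor beta (TGF-beta) signalling was followed in the hearts of young rats: Tgfb1, Ccn2, Fn1, Postn, Mmp2 and Timp1. They were chosen by Ensembl identifier, and 6 of the 30560 genes in the deposited count table are described here. All 6 passed the filter on low counts, as did 17009 genes in all. The table names genes by identifier only. The pairing of each identifier with its gene name came with the choice of genes and was not checked, because the sources used here pair 0 of the identifiers with a symbol. The identifiers are ENSRNOG00000020652 (Tgfb1), ENSRNOG00000015036 (Ccn2), ENSRNOG00000014288 (Fn1), ENSRNOG00000012660 (Postn), ENSRNOG00000016695 (Mmp2) and ENSRNOG00000010208 (Timp1).

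Bulk RNA sequencing was done on whole hearts of 18 male Wistar offspring aged 3 weeks. Their mothers had been given vehicle (7 offspring), cannabidiol at 3 mg/kg/day (CBD3, 6 offspring) or cannabidiol at 30 mg/kg/day (CBD30, 5 offspring) in pregnancy. The route of dosing is not given here, and only male offspring were profiled. Cannabidiol is a non-intoxicating compound of the cannabis plant. The labels do not say which offspring were littermates, so p-values treat each heart as independent. Hearts are named here by group and by the code of their column, such as 2.1.

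TGF-beta1 is secreted in a latent form bound to matrix, and once active it signals through cell surface kinases and Smad proteins. In the heart it is best known for driving fibroblasts to lay down matrix. Fibronectin (Fn1) and periostin (Postn) are matrix proteins made mainly by fibroblasts, connective tissue growth factor (Ccn2) is a secreted protein induced by TGF-beta and by mechanical strain, gelatinase A (Mmp2) cleaves matrix, and Timp1 inhibits metalloproteinases.

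Promoter sequences are shown for Tgfb1 and Timp1, the pair whose levels moved together most closely, and for Ccn2, which had the largest spread within groups pooled over the 3 groups. They come from RefSeq on build GRCr8 and are given 5′ to 3′ on the strand of the gene, each 300 bases running from 250 before to 50 after an annotated start. The counts themselves were made on another build, mRatBN7.2. Capitals mark matches on either strand to a TEAD motif (GGAATG), a Smad motif (GTCTG), an Sp1 motif (GGGCGG) or a TATA box (TATAAA).
Tgfb1, chr1:90324062-90324361, plus strand: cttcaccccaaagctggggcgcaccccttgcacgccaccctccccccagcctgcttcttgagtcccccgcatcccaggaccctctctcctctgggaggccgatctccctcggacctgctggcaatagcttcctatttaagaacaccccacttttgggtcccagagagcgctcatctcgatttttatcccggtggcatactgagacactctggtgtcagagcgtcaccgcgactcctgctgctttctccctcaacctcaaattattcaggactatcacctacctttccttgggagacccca
Timp1, chrX:3771073-3771372, minus strand: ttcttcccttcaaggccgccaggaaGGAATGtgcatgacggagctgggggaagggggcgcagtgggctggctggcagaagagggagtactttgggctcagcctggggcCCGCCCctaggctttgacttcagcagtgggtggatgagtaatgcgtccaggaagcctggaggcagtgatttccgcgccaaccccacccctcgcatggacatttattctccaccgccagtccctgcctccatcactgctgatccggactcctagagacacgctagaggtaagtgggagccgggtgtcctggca
Ccn2, chr1:22624565-22624864, minus strand: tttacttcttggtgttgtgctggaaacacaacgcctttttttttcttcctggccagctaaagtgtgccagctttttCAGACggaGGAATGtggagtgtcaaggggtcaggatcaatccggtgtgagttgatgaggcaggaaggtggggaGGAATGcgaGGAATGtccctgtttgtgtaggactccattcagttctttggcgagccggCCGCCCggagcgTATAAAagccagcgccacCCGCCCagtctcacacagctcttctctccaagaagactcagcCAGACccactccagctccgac
The Ccn2 window held 3 TEAD matches, at bases 85 to 90, 150 to 155 and 159 to 164, with 2 Smad matches, 2 Sp1 matches and 1 TATA box. The Timp1 window held 1 TEAD and 1 Sp1 match, and the Tgfb1 window held none of these letters. An AP-1 motif (TGANTCA) and an E-box (CANNTG) were also searched and matched in 0 of these windows. Each search took only the letters given, so a site with other letters would not be found. Of 33469 RefSeq promoter windows of the same length, 14.2% held the TEAD motif, 50.1% the Smad motif, 33.1% the Sp1 motif, 14.2% the TATA box and 7.33% the AP-1 motif. The E-box was in 72.1% of them. A match describes the letters only. The table gave a window for 4 of the 6 genes, the fourth being Postn.

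Libraries held 44127009 to 89240727 counts, and a heart gave 237 to 880 counts of Timp1 and 852 to 16349 of each other gene. The leading principal component of expression took up 29.8% of the variance, and the hearts farthest out on it were vehicle 2.1 (score -65.0), vehicle 1.1 (-57.9) and CBD30 2.1 (65.5). The codes end in digit 1 for 4 vehicle, 3 CBD3 and 2 CBD30 hearts and in digit 2 for 3 of each group, and no label says what the digit means. CPM stands for counts per 1000000, given here after scaling by the trimmed mean of M-values (TMM), and tests are edgeR's quasi-likelihood test with Benjamini-Hochberg adjustment over 17009 genes. None of the 6 genes passed an adjusted p of 0.05 in any comparison, and 0% of all genes tested did in each. At an unadjusted p under 0.05 with edgeR there were 2 of the 6 genes for CBD30 against vehicle, both higher, where 16.4% of all genes did (2794) and 9.11% were higher. There was 1 of 6 for CBD3 against vehicle, also higher, where 8.92% did (1518) and 3.89% were higher, and 0 of 6 between the doses, where 1.73% (294) did. DESeq2 was run without the filter on low counts and tested 24347 genes. It called 0 of the 6 genes in each comparison and 133, 19 and 1 of those 24347. On the 17009 genes, limma voom called none. Without vehicle 3.1, edgeR called 267 genes for CBD30 against vehicle, 0 of the 6 among them.

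Tgfb1, the ligand, lay between 17.8 and 36.9 CPM in the 7 vehicle hearts, with a median of 27.2 CPM. In the 6 CBD3 hearts it lay between 29.8 and 44.3 CPM, with a median of 34.4 CPM. The 5 CBD30 hearts, here and below in the order 1.1, 2.1, 1.2, 3.2 and 4.2, had 32.0, 48.8, 36.9, 31.9 and 36.5 CPM. Every exposed heart was above the vehicle median, but the groups overlapped, because vehicle 3.1 (36.9 CPM) and vehicle 2.2 (34.97 CPM) reached into the range of exposed hearts. The vehicle hearts coded 1.1 and 2.1 were at 18.8 and 17.8 CPM, below all others. Mean levels were 37.2 ± 6.92 CPM over CBD30 hearts and 26.6 ± 7.53 CPM over vehicle hearts (SD, n = 5 and 7), and the fitted log2 fold change was 0.49 ± 0.17 (standard error; 95% interval 0.13 to 0.84; adjusted p = 0.209 by edgeR, unadjusted 0.0102). For CBD3 the mean was 35.2 ± 5.25 CPM (n = 6) against the same vehicle hearts, with a log2 difference of 0.40 ± 0.16 (standard error; 95% interval 0.064 to 0.74; adjusted p = 0.551 by edgeR, unadjusted 0.0223). Exact two-sided permutation tests of log2 CPM gave unadjusted p = 0.0354 for CBD30 and 0.0431 for CBD3. Between the doses the log2 fold change was 0.081 ± 0.18 (SE; CBD30 over CBD3), with a 95% interval of -0.29 to 0.45.

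The Tgfb1 difference from vehicle moved with the hearts at the ends of the first component. Without vehicle 1.1, vehicle 2.1 and CBD30 2.1 its log2 fold change was 0.20 ± 0.14 for CBD30 (SE; adjusted p = 0.883 by edgeR) and 0.23 ± 0.13 for CBD3 (adjusted p = 0.986). Within the hearts whose code ends in digit 1 it was 0.68 ± 0.30 for CBD30 and 0.52 ± 0.27 for CBD3 (SE), and within those ending in digit 2 it was 0.32 ± 0.17 and 0.27 ± 0.17. The differences from vehicle did not pass a test of unequal size between the digits (edgeR interaction, adjusted p = 0.623 for CBD30 and 0.779 for CBD3). The sign was positive against vehicle for both doses in each of these fits.

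**Figure D1:**
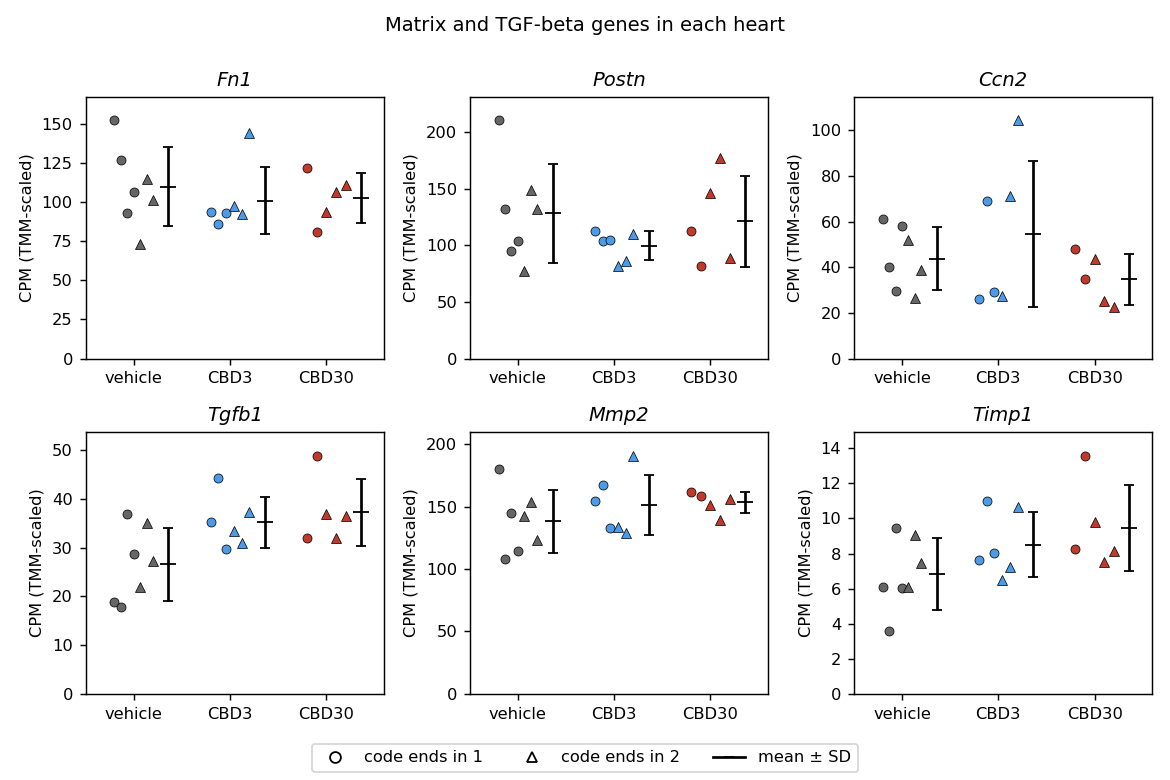
TMM-scaled CPM (y axis, from 0) of the 6 genes in each of 18 hearts, by maternal dose (x axis), with circles and triangles for codes ending in 1 and 2 and black bars for the mean ± SD. The groups overlap for all 6 genes, and every gene but Ccn2 has its lowest value in a vehicle heart. Ccn2 in CBD3 hearts falls into 3 low and 3 high values.

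Timp1, the inhibitor, followed the same order of group means as Tgfb1, an order that Mmp2 also had. Vehicle hearts ranged from 3.58 to 9.46 CPM with a median of 6.08 CPM. CBD3 hearts ranged from 6.49 to 11.0 CPM with a median of 7.85 CPM. The CBD30 hearts had 8.23, 13.6, 9.77, 7.55 and 8.13 CPM. All exposed hearts lay above the vehicle median, while vehicle 3.1 (9.46 CPM), vehicle 2.2 (9.08 CPM) and vehicle 3.2 (7.48 CPM) reached into their range. The lowest heart was vehicle 2.1, at 3.58 CPM, and the highest was CBD30 2.1. The mean was 9.45 ± 2.45 CPM over CBD30 hearts and 6.83 ± 2.03 CPM over vehicle hearts (SD, n = 5 and 7), and the fitted log2 fold change was 0.47 ± 0.21 (standard error; 95% interval 0.035 to 0.90; adjusted p = 0.274 by edgeR, unadjusted 0.0354). An exact two-sided permutation test of the same pair gave p = 0.0669. For CBD3 the mean was 8.51 ± 1.86 CPM (n = 6), with a log2 difference from vehicle of 0.32 ± 0.20 (standard error; 95% interval -0.096 to 0.73; adjusted p = 0.571 by edgeR). Between CBD30 and CBD3 hearts the log2 fold change was 0.15 ± 0.21 (SE; edgeR adjusted p = 0.999). Without the 3 hearts at the ends of the first component the log2 fold changes from vehicle were 0.14 ± 0.18 for CBD30 and 0.16 ± 0.16 for CBD3 (SE). Leaving out only CBD30 2.1 gave 0.30 for CBD30, and leaving out only vehicle 2.1 gave 0.21 for CBD3.

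Mmp2, the protease, had the smallest pooled SD of log2 CPM within groups of the 6 genes. Its vehicle range was 108 to 180.2 CPM (median 142 CPM), its CBD3 range 129 to 191 CPM (median 144 CPM), and the CBD30 hearts had 162, 159, 151, 139.5 and 156 CPM. All CBD30 values lay inside the vehicle range. Means were 153 ± 8.71 CPM over CBD30 hearts and 138 ± 25.1 CPM over vehicle hearts (SD, n = 5 and 7), and the fitted log2 fold change was 0.15 ± 0.12 (standard error; adjusted p = 0.529 by edgeR). As a fold, the 95% interval was 0.93 to 1.33. CBD3 hearts averaged 151 ± 24.3 CPM (n = 6), with a log2 difference from vehicle of 0.13 ± 0.12 (standard error; adjusted p = 0.644 by edgeR). Leaving out 1 heart gave 0.055 (without CBD3 3.2) to 0.21 (without vehicle 1.1) for CBD3, and 0.099 (without vehicle 2.1) to 0.23 (without vehicle 1.1) for CBD30. The dose groups differed by 0.019 ± 0.13 (log2, SE; CBD30 over CBD3), with a 95% interval of -0.25 to 0.28. As a ratio of counts within each library, Timp1 over Mmp2 averaged 0.0497 ± 0.0131 in vehicle, 0.0560 ± 0.00649 in CBD3 and 0.0615 ± 0.0145 in CBD30 hearts (SD, n = 7, 6 and 5). This ratio was not tested, and its ranges overlapped (0.0332 to 0.0652, 0.0485 to 0.0656 and 0.0509 to 0.0856).

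Ccn2 varied more between hearts than the other 5 genes when the spread within groups was pooled. Its coefficient of variation was 31.1% in vehicle, 58.9% in CBD3 and 32.0% in CBD30 hearts, and that of Postn was slightly above it in vehicle (34.1%) and in CBD30 hearts (33.0%) but not in CBD3 hearts (12.9%). The pooled SD of log2 CPM within groups was 0.634 for Ccn2, larger than that of 95.4% of the 13527 genes averaging 1 CPM or more, whereas Mmp2 (0.213) exceeded 38.9% of those genes. Vehicle hearts ranged from 26.5 to 61.2 CPM with a median of 40.2 CPM. Of the CBD3 hearts, those coded 1.1, 1.2 and 3.1 had 26.0, 27.4 and 29.1 CPM, and those coded 2.1, 2.2 and 3.2 had 69.1, 71.2 and 104.3 CPM. Of the first trio, 1.1 lay just under the vehicle minimum and the others in the lower part of the vehicle range, and the second trio lay above its top. CBD30 hearts had 47.9, 34.6, 43.5, 25.0 and 22.5 CPM, all below those 3 high CBD3 hearts. The mean was 34.7 ± 11.1 CPM over CBD30 hearts and 43.8 ± 13.6 CPM over vehicle hearts (SD, n = 5 and 7), and the fitted log2 fold change was -0.34 ± 0.33 (standard error; 95% interval -1.03 to 0.36; adjusted p = 0.604 by edgeR), which was -0.21 without CBD30 4.2. CBD3 hearts averaged 54.5 ± 32.1 CPM (n = 6), with a log2 difference from vehicle of 0.32 ± 0.31 (standard error; 95% interval -0.34 to 0.97; adjusted p = 0.676 by edgeR), which was 0.024 without CBD3 3.2. CBD30 against CBD3 gave the largest difference among the 18 tests of the 6 genes, with a log2 difference of -0.65 ± 0.34 (standard error; 95% interval -1.37 to 0.067; adjusted p = 0.999 by edgeR). That difference was 0.0048 ± 0.42 in hearts of digit 1 and -1.16 ± 0.43 in hearts of digit 2 (log2, SE), and -0.36 over all hearts without CBD3 3.2. CBD3 3.2 is a heart of digit 2, and whether the dose difference was unequal between the digits was not tested.

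**Figure D2:**
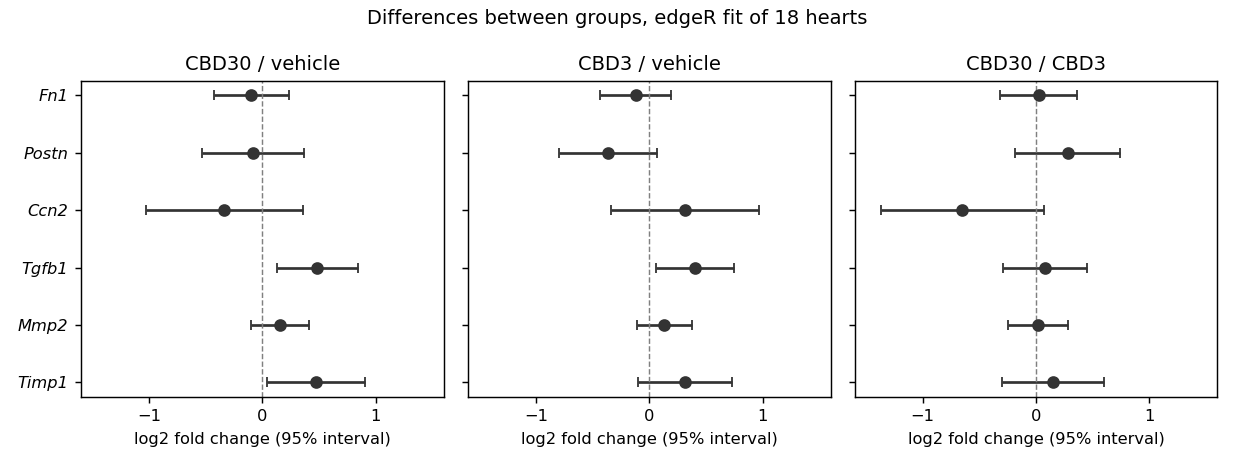
Log2 fold changes of the 6 genes (points) with 95% intervals (bars) from the edgeR fit of 18 hearts, for CBD30 over vehicle, CBD3 over vehicle and CBD30 over CBD3. The intervals of Tgfb1 lie above 0 for both doses against vehicle (0.13 to 0.84 and 0.064 to 0.74) and that of Timp1 for CBD30 only, before any adjustment for the number of genes, and those of Ccn2 are the widest.

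Fn1, the adhesive glycoprotein of matrix, had group means of 101 to 109.9 CPM, closer to each other than the SD within any group. Vehicle hearts ranged from 73.2 to 152 CPM (median 107 CPM) and CBD3 hearts from 86.0 to 144 CPM (median 93.4 CPM). CBD30 hearts had 122, 80.9, 93.4, 106 and 111 CPM. Its mean was 103 ± 15.8 CPM over CBD30 hearts and 109.9 ± 25.2 CPM over vehicle hearts (SD, n = 5 and 7), and the fitted log2 fold change was -0.099 ± 0.16 (standard error; 95% interval -0.43 to 0.23; adjusted p = 0.764 by edgeR). In CBD3 hearts the mean was 101 ± 21.4 CPM (n = 6), with a log2 difference from vehicle of -0.12 ± 0.15 (standard error; 95% interval -0.44 to 0.19; adjusted p = 0.742 by edgeR). The sign was not the same in the digits: -0.23 ± 0.21 and 0.098 ± 0.20 for CBD30, and -0.40 ± 0.18 and 0.20 ± 0.20 for CBD3 (log2 fold change, SE, digit 1 and digit 2). Leaving out 1 heart gave -0.18 (without vehicle 1.2) to -0.0026 (without vehicle 1.1) for CBD30, and -0.25 (without CBD3 3.2) to -0.025 (without vehicle 1.1) for CBD3. The differences between the digits did not pass (edgeR interaction, adjusted p = 0.557 for CBD30 and 0.532 for CBD3).

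Postn, a matricellular protein and a common marker of activated fibroblasts, ranged from 77.1 to 211 CPM in vehicle hearts (median 132 CPM). CBD3 hearts were closer together, from 82.0 to 113 CPM with a median of 104 CPM. CBD30 hearts had 113, 81.8, 146, 177 and 88.6 CPM. The highest heart was vehicle 1.1 at 211 CPM, and all 6 CBD3 hearts were below the vehicle median. The mean was 121 ± 40.1 CPM over CBD30 hearts and 129 ± 43.9 CPM over vehicle hearts (SD, n = 5 and 7), and the fitted log2 fold change was -0.084 ± 0.22 (standard error; 95% interval -0.53 to 0.37; adjusted p = 0.857 by edgeR). CBD3 hearts averaged 99.9 ± 12.9 CPM (n = 6), with a log2 difference from vehicle of -0.36 ± 0.20 (standard error; 95% interval -0.79 to 0.064; adjusted p = 0.551 by edgeR), which was -0.20 without vehicle 1.1. Between the doses it was 0.28 ± 0.22 (SE; CBD30 over CBD3; edgeR adjusted p = 0.999), and 0.10 without CBD30 3.2. For CBD30 against vehicle, leaving out 1 heart gave values from -0.26 without CBD30 3.2 to 0.078 without vehicle 1.1.

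As a group, 3 of the 6 genes had a positive log2 fold change for CBD30 against vehicle, where 46.8% of all genes did, 4 of 6 for CBD3, where 46.6% did, and 5 of 6 for CBD30 against CBD3, where 53.1% did. The median log2 fold change of the 6 genes was 0.033 for CBD30 and 0.22 for CBD3, beside -0.021 and -0.020 over all genes tested. Both comparisons use the same 7 vehicle hearts. No gene of the 6 had groups without overlap, which occurred higher and lower for 0.253% and 0.376% of all genes for CBD30, for 0.118% and 0.0764% for CBD3, and for 0.0647% and 0.153% between the doses. In bulk tissue a different number of cells of a type and a different amount of RNA per cell cannot be told apart. Markers of heart cell types were not analysed here, since the sources used here do not pair the identifiers with symbols.

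Levels of the 6 genes were then compared with each other across the 18 hearts, in 15 pairs. Tgfb1 and Timp1 had the closest relation, with a Pearson r of 0.89 and a Spearman rho of 0.91 (permutation p = 1e-05 for each, the smallest that the permutations can give, adjusted p = 0.00015). The relation was 0.92 in hearts of digit 1 and 0.75 in hearts of digit 2, 0.85 with each group centred on its mean, and 0.86 without vehicle 1.1 and 2.1, the hearts farthest from the median. The ratio of Timp1 to Tgfb1 counts within a library was similar across groups, at 0.258 ± 0.0416 in vehicle, 0.241 ± 0.0339 in CBD3 and 0.252 ± 0.0222 in CBD30 hearts (SD, n = 7, 6 and 5). Among the other 13526 genes averaging 1 CPM or more, Timp1 was the 204th most like Tgfb1, and 1.51% of those genes were at least as closely related to Tgfb1. Timp1 and its target Mmp2 had r = 0.64 and rho = 0.63 (permutation p = 0.00385 and 0.00556, adjusted 0.0289 and 0.0278). Without vehicle 2.1 and 4.1, both of digit 1, r was 0.38 (permutation p = 0.141). Over the digit 2 hearts, which include neither, it was 0.74, and over those of digit 1 it was 0.62. Tgfb1 and Mmp2 had rho = 0.59 (permutation p = 0.0112, adjusted 0.0419) but r = 0.41 (permutation p = 0.0862, adjusted 0.323), at 0.38 and 0.53 within the digits. That r was 0.20 without vehicle 2.1 alone, 0.72 without vehicle 1.1 alone, 0.59 without both (permutation p = 0.0161) and 0.26 with each group centred on its mean.

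The matrix proteins Fn1 and Postn formed another pair, with r = 0.62 and rho = 0.65 (permutation p = 0.00587 and 0.00491, adjusted 0.0293 and 0.0278). That r was 0.89 in hearts of digit 1 and 0.38 in those of digit 2, and 0.55 without vehicle 1.1 and CBD3 3.2 (permutation p = 0.0266). It was 0.47 without vehicle 1.1 alone and 0.70 without CBD3 3.2 alone. Within groups it was 0.93 in vehicle, 0.29 in CBD3 and 0.25 in CBD30 hearts. Tgfb1 had r = -0.37 with Fn1 and -0.36 with Postn (permutation p = 0.125 and 0.137, adjusted 0.342 for both; rho = -0.27 and -0.25, permutation p = 0.272 and 0.305). These r values were -0.17 and -0.13 without vehicle 1.1, and -0.63 and -0.54 without vehicle 1.2. The Tgfb1 relation to Fn1 had opposite signs in the digits, -0.89 in digit 1 and 0.74 in digit 2 (n = 9 each). It was not alone in this. Other such pairs included Timp1 with Fn1 (-0.74 and 0.76), Tgfb1 with Postn (-0.81 and 0.32) and Timp1 with Postn (-0.60 and 0.52). Of the digit 2 hearts, vehicle 1.2 had the lowest Fn1, Tgfb1 and Timp1 (73.2, 21.9 and 6.08 CPM). CBD3 3.2 had the highest of all these genes (144, 37.2 and 10.65 CPM). The r within digit 2 was not computed without these hearts, and the difference in sign between the digits was not tested. Ccn2 had no relation past an adjusted p of 0.05 to any of the 5 other genes, with r from -0.15 for Tgfb1 to 0.24 for Mmp2.

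**Figure D3:**
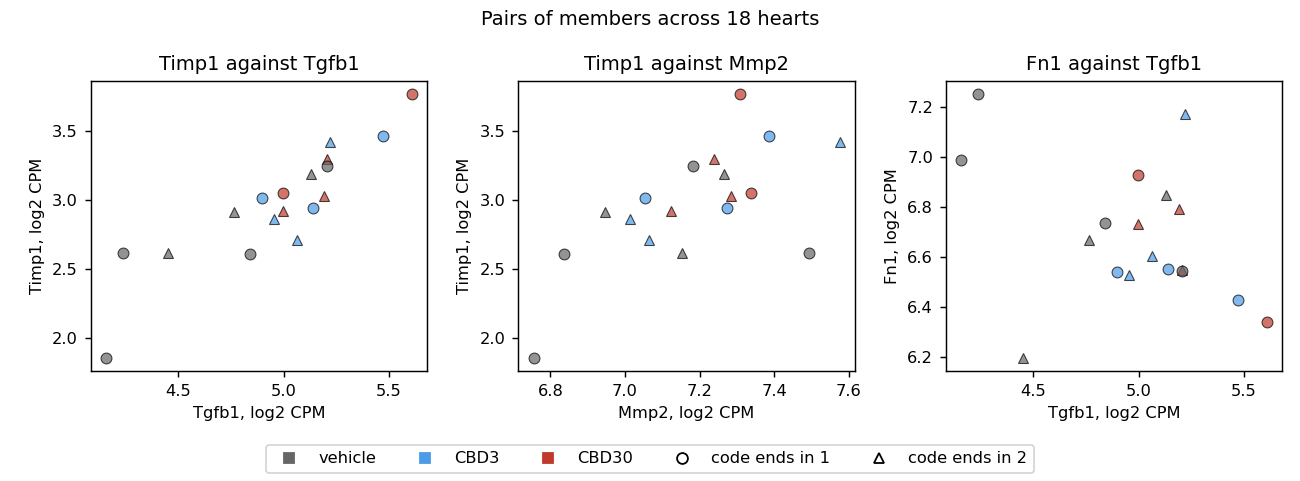
Log2 CPM of Timp1 against Tgfb1 (left), Timp1 against Mmp2 (middle) and Fn1 against Tgfb1 (right) in 18 hearts, coloured by group and shaped by the last digit of the code. Timp1 follows Tgfb1 in both digits (r = 0.92 and 0.75), while Fn1 runs against Tgfb1 among circles (r = -0.89) and with it among triangles (r = 0.74). Among triangles on the right, vehicle 1.2 is lowest on both axes and CBD3 3.2 highest on both, and the contrast between digits was not tested.

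Library measures moved with some of these genes. The score on the first component, to which the 6 genes themselves contribute among 17009, was set beside each gene. For Tgfb1 it gave r = 0.82 and rho = 0.72 (permutation p = 6e-05 and 0.00096, adjusted 0.00036 and 0.00576 over 18 relations). For Timp1 it gave r = 0.85 and rho = 0.77 (permutation p = 1e-05 and 0.00024, adjusted 0.00018 and 0.00216), and for Fn1 r = -0.63 and rho = -0.60 (permutation p = 0.00511 and 0.00962, adjusted 0.023 and 0.0433). Without vehicle 1.1 and 2.1 the r values for Tgfb1, Timp1 and Fn1 were 0.60, 0.78 and -0.41 (permutation p = 0.0158, 0.0005 and 0.114). In digit 1 hearts they were 0.96, 0.93 and -0.86, and in digit 2 hearts -0.046, 0.39 and -0.096. Fn1 also had r = -0.81 and rho = -0.81 with the share of counts in the 10 most abundant genes, at -0.85 and -0.79 within the digits and -0.73 without vehicle 1.2 and 2.1 (permutation p over all hearts = 4e-05 for r and 8e-05 for rho, adjusted 0.00036 and 0.00144). With that share, Tgfb1 had r = 0.17 over all hearts, 0.86 in digit 1 hearts and -0.93 in digit 2 hearts. In the same order, Timp1 had 0.29, 0.86 and -0.63, and Mmp2 had -0.045, 0.37 and -0.52. The total count of the library had r of -0.012 to 0.21 with the 6 genes. The part of these measures in the group differences was not tested.

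The genes most like each of the 6 across hearts are given by identifier, as the sources used here do not pair them with symbols. For Tgfb1 they were ENSRNOG00000018730 (r = 0.96), ENSRNOG00000033152 (0.95) and ENSRNOG00000002997 (0.95). For Timp1 the closest was ENSRNOG00000043007 (r = 0.96), for Fn1 ENSRNOG00000007302 (0.93), for Mmp2 ENSRNOG00000003172 (0.89), for Postn ENSRNOG00000002848 (0.88) and for Ccn2 ENSRNOG00000003745 (0.77), each over 18 hearts and 13527 genes. These are the highest of many values and are given as a description. Ccn2 thus had the weakest nearest match of the 6.

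**Figure D4:**
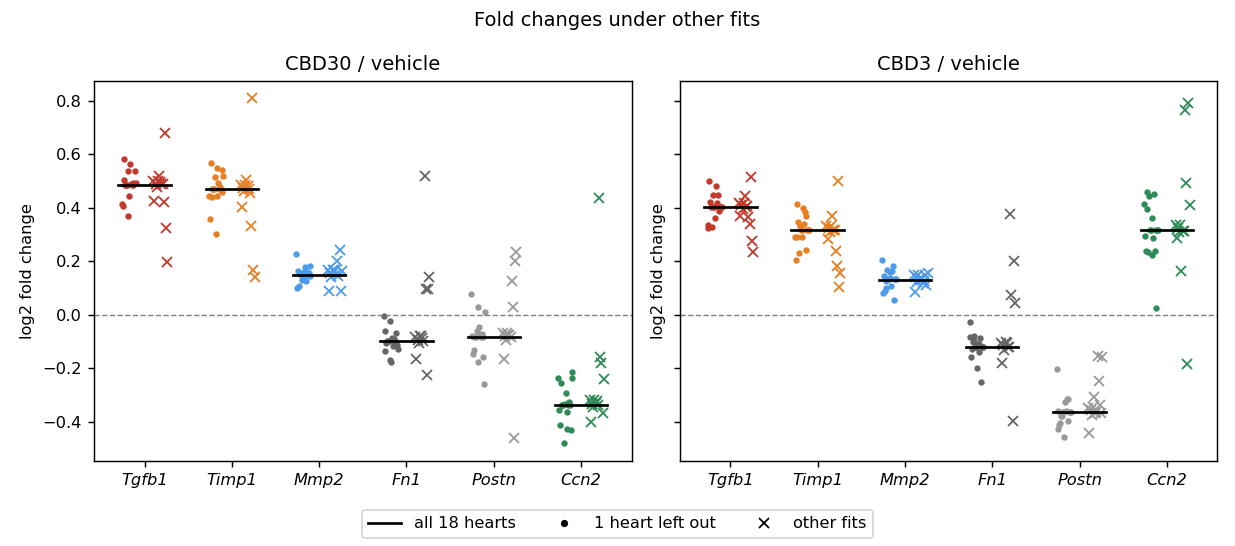
Log2 fold changes of the 6 genes for CBD30 over vehicle (left) and CBD3 over vehicle (right), with black lines for the fit of 18 hearts, dots for fits with 1 heart left out and crosses for the other fits. Tgfb1, Timp1 and Mmp2 stay above 0 in every fit drawn for both doses, while Fn1 and Ccn2 have crosses on both sides of 0 for both doses and Postn for CBD30.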

How the data were processed

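Libraries were made from total RNA of frozen hearts with a stranded messenger RNA kit, per the labels' protocols. The deposited table holds raw counts for each Ensembl gene in whole numbers. Tools named in the submitters' processing notes are featureCounts and edgeR, with the build mRatBN7.2. The sources used here do not state the aligner, the annotation release or how reads were counted. Each of the 18 columns was assigned to a group by its code. The replicate number is unknown for 4 vehicle columns, whose codes stand with 2 samples each.

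Genes were kept by filterByExpr (minimum count 10, minimum total 15), scaled by TMM and tested with the quasi-likelihood test of edgeR 4.0.16 in R 4.3.3 in 1 fit of 18 samples, with group as the only term. Standard errors come from the F statistic. Log2 CPM used a prior count of 2. Correlations used 100000 permutations. The edgeR code was run on simulated counts with planted changes, drawn independently for each heart. The share of planted changes found is not reported here, so this run does not show how small a difference could be detected. All 46 pairs of libraries of the same group differed by more than counting noise (chi-square at least 36.5 per degree of freedom). Same-numbered hearts of different groups did not consistently deviate together (r from -0.196 to 0.308 over 8 pairs, 2 of them above 0.1). The 4 vehicle columns without a number could not be checked. The numbers were not treated as pairs.

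The 6 genes, the lists and the alternatives were chosen with earlier results of these data known. The named genes were the 6 genes and, for each, the 3 most like it. Lists of other pathway genes and of cell type markers could not be matched to identifiers and were not tested. Alternatives included DESeq2 1.42.0 and limma 3.58.1 with voom. Whether counts were adjusted before deposit is not stated.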

Additional observations from a re-analysis of the deposited data

Results flagged for a closer look

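Of 18 sets of 5 to 7 hearts (6 genes in 3 groups), 1 held a heart far from the others, where chance gives about 1 in 20. Fn1 in CBD3 heart 3.2 was at 144 CPM, with the nearest other CBD3 heart at 97.3 CPM, a gap of 0.805 of the range of the group. The same heart had the highest Ccn2 (104.3 CPM) and Mmp2 (191 CPM) of all 18 hearts.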

How the results depend on the processing

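None of the 6 genes had an adjusted p under 0.05 in any comparison in 13 other fits or with any heart left out. The lowest adjusted p for a gene of the 6 was 0.0628, for Tgfb1 in CBD30 against vehicle without vehicle 3.1 (edgeR). Against vehicle, 3 of the 6 genes (Tgfb1, Timp1 and Mmp2) kept their sign in all 13 fits for CBD30, and 4 (these and Postn) for CBD3. Between the doses 0 of 6 did. Of the 24347 genes that it tested, DESeq2 called 133 for CBD30, 19 for CBD3 and 1 between the doses. Over all genes, edgeR fitted to only the groups compared called 1 between the doses. The cause of these calls was not tested. With each heart left out, edgeR called 0 to 267 genes for CBD30 (267 without vehicle 3.1), 0 to 0 for CBD3 and 0 to 0 between the doses, and 0 to 0 of the 6 genes in each.

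Signs turned as follows (log2 fold changes; the cause was not tested). With the replicate number as a block, on the 14 columns that have one, CBD30 against vehicle was 0.52 for Fn1, 0.13 for Postn and 0.44 for Ccn2, and CBD3 against vehicle was 0.38 for Fn1. The same columns without the block, a fit added after seeing the data, gave 0.096 for Fn1 and 0.030 for Postn for CBD30 and 0.075 for Fn1 for CBD3. The block changed no call among the 6 genes. Under it, CBD30 4.2 was the only CBD30 heart that shared its number with a vehicle heart, vehicle 1.2. CBD3 2.2 shared that number too, and CBD3 3.2 shared its own with vehicle 2.2. Vehicle 1.2 had the lowest Fn1 of all hearts, at 73.2 CPM. In digit 1 hearts Ccn2 was -0.18 for CBD3 against vehicle, and CBD30 against CBD3 was -0.12 for Postn and 0.0048 for Ccn2. In digit 2 hearts Fn1 was 0.098 and Postn 0.20 for CBD30 against vehicle, Fn1 was 0.20 for CBD3 against vehicle, and CBD30 against CBD3 was -0.10 for Fn1 and -0.024 for Mmp2. Without vehicle 1.1, vehicle 2.1 and CBD30 2.1, CBD30 against vehicle was 0.14 for Fn1 and 0.23 for Postn, CBD3 against vehicle was 0.045 for Fn1, and CBD30 against CBD3 was -0.036 for Tgfb1 and -0.016 for Timp1. Leaving out 1 heart gave -0.26 to 0.078 for Postn in CBD30 against vehicle (above 0 without vehicle 1.1, CBD30 2.1 or CBD30 4.2). Between the doses it gave -0.047 to 0.15 for Fn1, -0.024 to 0.096 for Mmp2, -0.036 to 0.16 for Tgfb1 and -0.015 to 0.24 for Timp1. Postn (0.10 to 0.39) and Ccn2 (-0.80 to -0.36) kept their sign between the doses with any heart left out.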
